A study of Mus musculus with 12 samples.

Results

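The guanylate-binding protein genes Gbp2 to Gbp10 were taken as 9 named rows of a count table of 16283 genes. They were followed across 12 RNA-sequencing libraries of 4T1 cells, which derive from a BALB/c mouse mammary carcinoma. There were 2 libraries in each of 6 groups, since 3 edited lines were each given vehicle or the cytokine IFN-gamma at 20 ng/ml for 24 hours. The control line carried a guide RNA that targets Rosa26, a safe-harbour locus, and the other lines carried Cebpd sgRNA1 or Cebpd sgRNA2. Cebpd encodes a transcription factor, C/EBP delta, and the question of the series is how its loss alters the transcriptome with and without the cytokine. All 6 groups had thus been edited with a guide, and no unedited cells were included. The sources used here do not give the guides' target sites or whether a line is a clone or a pool, so each guide stands for 1 line. The labels do not say whether paired libraries stem from different cultures, and p-values therefore reflect only the spread between these libraries, which may be technical.

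Guanylate-binding proteins are large GTPases of the dynamin superfamily that IFN-gamma induces in many cell types. They bind and hydrolyse GTP, assemble as coats on pathogen vacuoles and on bacteria, and help to expose microbial ligands to the caspase-11 and AIM2 inflammasomes. IFN-gamma signals from its receptor through JAK kinases to promoters with GAS elements, and the induced factor IRF1 binds ISRE elements. Gbp promoters are known to use both kinds of site. The mouse genes lie in a cluster on chromosome 3 and another on chromosome 5 that arose by duplication.

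In the GENCODE vM21 annotation of GRCm38, the assembly also called mm10, the 4 members on chromosome 3 lie on the plus strand. Gbp5 is at chr3:142493978-142522344, Gbp7 at chr3:142530342-142550149, Gbp3 at chr3:142560026-142573209 and Gbp2 at chr3:142620602-142638008. The 5 members on chromosome 5 lie on the minus strand. Gbp8 is at chr5:105014150-105139540, Gbp9 at chr5:105077630-105139539, Gbp4 at chr5:105115767-105139586, Gbp10 at chr5:105215699-105239533 and Gbp6 at chr5:105270702-105293698. All 9 are protein-coding, with 11 exons in the main transcript, except 10 in Gbp8. The deposited counts are per gene symbol, and the sources used here do not name the annotation they were counted on.

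RefSeq promoter windows on GRCm38.p6 were matched for the 4 chromosome 3 members, with 2 start sites for Gbp3. They are shown for the GAS and ISRE elements described above. No window was matched for the members on chromosome 5, which moved in the same directions in the measurements below. Whether the motifs bear on the measured levels was not tested. The 250 bases before each start are printed 5′ to 3′ on the plus strand, for Gbp5 chr3:142496684-142496933, for Gbp7 chr3:142530086-142530335, for Gbp3 (the upstream start) chr3:142559794-142560043 and for Gbp2 chr3:142620413-142620662. Capitals mark every match, on either strand, to the ISRE letters GAAANNGAAA or the GAS letters TTCNNNGAA, where N is any base. The GAS letters read the same on both strands.
Gbp5: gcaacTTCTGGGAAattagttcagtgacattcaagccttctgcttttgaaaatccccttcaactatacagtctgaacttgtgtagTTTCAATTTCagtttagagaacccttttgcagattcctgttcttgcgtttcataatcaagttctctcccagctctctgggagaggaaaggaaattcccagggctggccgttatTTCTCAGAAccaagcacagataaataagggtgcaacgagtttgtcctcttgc
Gbp7: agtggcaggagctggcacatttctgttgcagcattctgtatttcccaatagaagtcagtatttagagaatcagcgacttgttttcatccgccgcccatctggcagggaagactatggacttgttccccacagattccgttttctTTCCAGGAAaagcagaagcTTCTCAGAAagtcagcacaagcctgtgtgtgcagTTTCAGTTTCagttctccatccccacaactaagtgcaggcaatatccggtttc
Gbp3: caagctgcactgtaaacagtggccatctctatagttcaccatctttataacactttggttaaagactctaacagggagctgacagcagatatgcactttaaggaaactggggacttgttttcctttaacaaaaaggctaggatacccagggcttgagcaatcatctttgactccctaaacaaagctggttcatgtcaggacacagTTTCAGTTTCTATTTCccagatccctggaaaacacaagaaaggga
Gbp2: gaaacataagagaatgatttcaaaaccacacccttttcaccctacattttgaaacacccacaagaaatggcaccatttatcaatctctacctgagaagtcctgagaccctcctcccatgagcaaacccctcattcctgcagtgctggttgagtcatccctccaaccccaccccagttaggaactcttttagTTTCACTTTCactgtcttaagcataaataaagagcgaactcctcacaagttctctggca

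Each of these 4 windows holds ISRE letters, all on the minus strand. The match spans bases -59 to -50 from the start in Gbp2, -53 to -44 in Gbp7 and -165 to -156 in Gbp5, and in Gbp3 a pair of matches overlaps between -45 and -30. Gbp5 and Gbp7 each hold 2 matches to the GAS letters, at -245 and -52 in Gbp5 and at -106 and -87 in Gbp7, and no match of this form was found for Gbp2 and Gbp3. The window of the other Gbp3 start holds neither motif. Of 32851 RefSeq windows of the same 300 bases, which add the 50 bases after the start, 3.44% held the ISRE letters and 8.30% the GAS letters. A match is a run of letters and not a measured binding site.

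The chromosome 5 members are near-copies of each other. In the coding sequence of the main transcripts, Gbp6 and Gbp10 were identical at 1806 of 1836 aligned bases (98.4%), with an identical run of up to 421 bases. The stretch of coding bases 1526 to 1645 is printed for both because it holds 12 of their differences, in capitals, and shows how little sequence separates reads of the pair.
Gbp6: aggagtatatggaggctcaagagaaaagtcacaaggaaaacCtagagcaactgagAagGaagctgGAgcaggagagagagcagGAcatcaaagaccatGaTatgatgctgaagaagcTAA
Gbp10: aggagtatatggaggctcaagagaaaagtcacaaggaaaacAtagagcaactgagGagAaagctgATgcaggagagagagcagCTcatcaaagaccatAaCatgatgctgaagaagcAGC

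The closest relative of Gbp4 was Gbp8 at 92.9% identity, and that of Gbp9 was Gbp6 at 90.9%. On chromosome 3 the members were further apart, with 78.5% identity between Gbp3 and Gbp7 and 69.7% between Gbp2 and Gbp5. The closest relative of Gbp2 was Gbp2b, a gene outside the set, at 82.5%. Windows of 100 transcript bases that occur exactly in another annotated gene made up 82.9% of Gbp6 and 70.9% of Gbp10, against 10.2% of Gbp7, most of it shared with the pseudogene Gm43802, and at most 3.81% of the other 6 members. Most of the sharing of Gbp6 and Gbp10 was with Gm43302, an annotated gene model that also has a row in the table and whose exons overlap 29.0% of the exon bases of Gbp6 and 46.3% of those of Gbp10. Values of Gbp6 and Gbp10 are therefore uncertain to the extent that the counting divided reads between these rows, and the sources used here give no read length. In windows of 50 bases the shares were 90.2% for Gbp6, 82.5% for Gbp10, 21.2% for Gbp8, 12.8% for both Gbp4 and Gbp7, and 9.56% for Gbp9. They were at most 4.79% for the rest. With short reads the values of Gbp4, Gbp7, Gbp8 and Gbp9 would thus be less certain too.

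Total counts per library lay between 16912710 and 24784371. Cebpd itself was at 7.13 to 9.09 CPM (counts scaled to a common library total after TMM normalization) in control vehicle libraries, 13.4 to 13.6 in the sgRNA1 line and 8.51 to 10.6 in the sgRNA2 line. In IFN-gamma it was at 49.1 to 53.5, 45.6 to 45.9 and 29.4 to 30.2 CPM in the same order. In vehicle Cebpd mRNA did not separate both guide lines downward from control, so lines are named here by their labelled guide. The 6 epithelial markers, among them Epcam and Krt8, summed to 2501 to 3881 CPM, and none of 6 T, B and NK cell markers is listed in the table. Bulk RNA cannot tell apart fewer cells that express a gene and less RNA of it per cell.

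All 9 members were at low levels in control cells given vehicle, with group means of at most 4.66 CPM. Gbp9 had 95 and 84 counts in the 2 control vehicle libraries, the most reads of the set. Gbp5 had 0 and 2 counts, Gbp8 had 1 and 3 and Gbp10 had 0 and 3, so these 3 were at or under a floor of 3 counts per library. The summed level of the set was 9.14 and 10.2 CPM. All 9 passed the filter on low counts over the 12 libraries, whereas 8 passed over the vehicle libraries alone, Gbp5 being the exception.

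IFN-gamma raised all 9 members in the control line. Summed over the set, the 2 control libraries rose to 5431 and 5476 CPM, which is 0.523% and 0.528% of all counts. In the quasi-likelihood test of edgeR, with p-values adjusted by Benjamini-Hochberg over 13601 genes, 9 of 9 members were called higher at an adjusted p below 0.05, against 36.4% of all genes tested. The members' median log2 fold change was 9.76, and that of all genes was 0.01. With the 3 genes at the floor set to the lower ends of their counting intervals, the members' median was 9.21.

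Gbp2, whose product coats vacuoles of Toxoplasma and carries a C-terminal lipid anchor, was at 0.930 and 1.52 CPM in control vehicle libraries and at 1741 and 1731 CPM in control IFN-gamma libraries. The groups are far apart, and the log2 fold change was 10.46 ± 0.21 (SE, adjusted p = 7.82e-22). Gbp4, a chromosome 5 member, went from 0.775 and 1.05 CPM to 1354 and 1395 CPM, a log2 fold change of 10.55 ± 0.17 (adjusted p = 9.24e-24). Its groups too are separated by more than the spread between libraries.

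Gbp10, known with Gbp6 and Gbp7 to restrict intracellular bacteria in macrophages, had 0 and 3 counts in control vehicle libraries and 9732 and 9474 counts after IFN-gamma. With so few counts at baseline the ratio, 6131, has a 95% counting interval of 2097 to 29731, which covers counting error only. Gbp5, which like Gbp2 carries a lipid anchor signal and promotes inflammasome assembly, had 0 and 2 counts and then 5001 and 4662. Its ratio was 4627, with an interval of 1280 to 38210. Gbp8 had 1 and 3 counts and then 1998 and 1854, a ratio of 922 with an interval of 360 to 3386. These 3 genes thus start at the limit of detection, and the size of their induction is known only within these wide intervals.

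Gbp9 stood at the other end. Its level was 4.91 and 4.40 CPM in control vehicle libraries and 277 and 283 CPM in control IFN-gamma libraries, a log2 fold change of 5.91 ± 0.15 (adjusted p = 2.2e-18). The 95% interval, 5.60 to 6.22, lies below that of every other member, of which the nearest lower bounds are those of Gbp6 at 7.89 and Gbp7 at 8.25. The remaining members, Gbp3, Gbp6 and Gbp7, had log2 fold changes between 8.72 and 9.21.

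**Figure D1:**
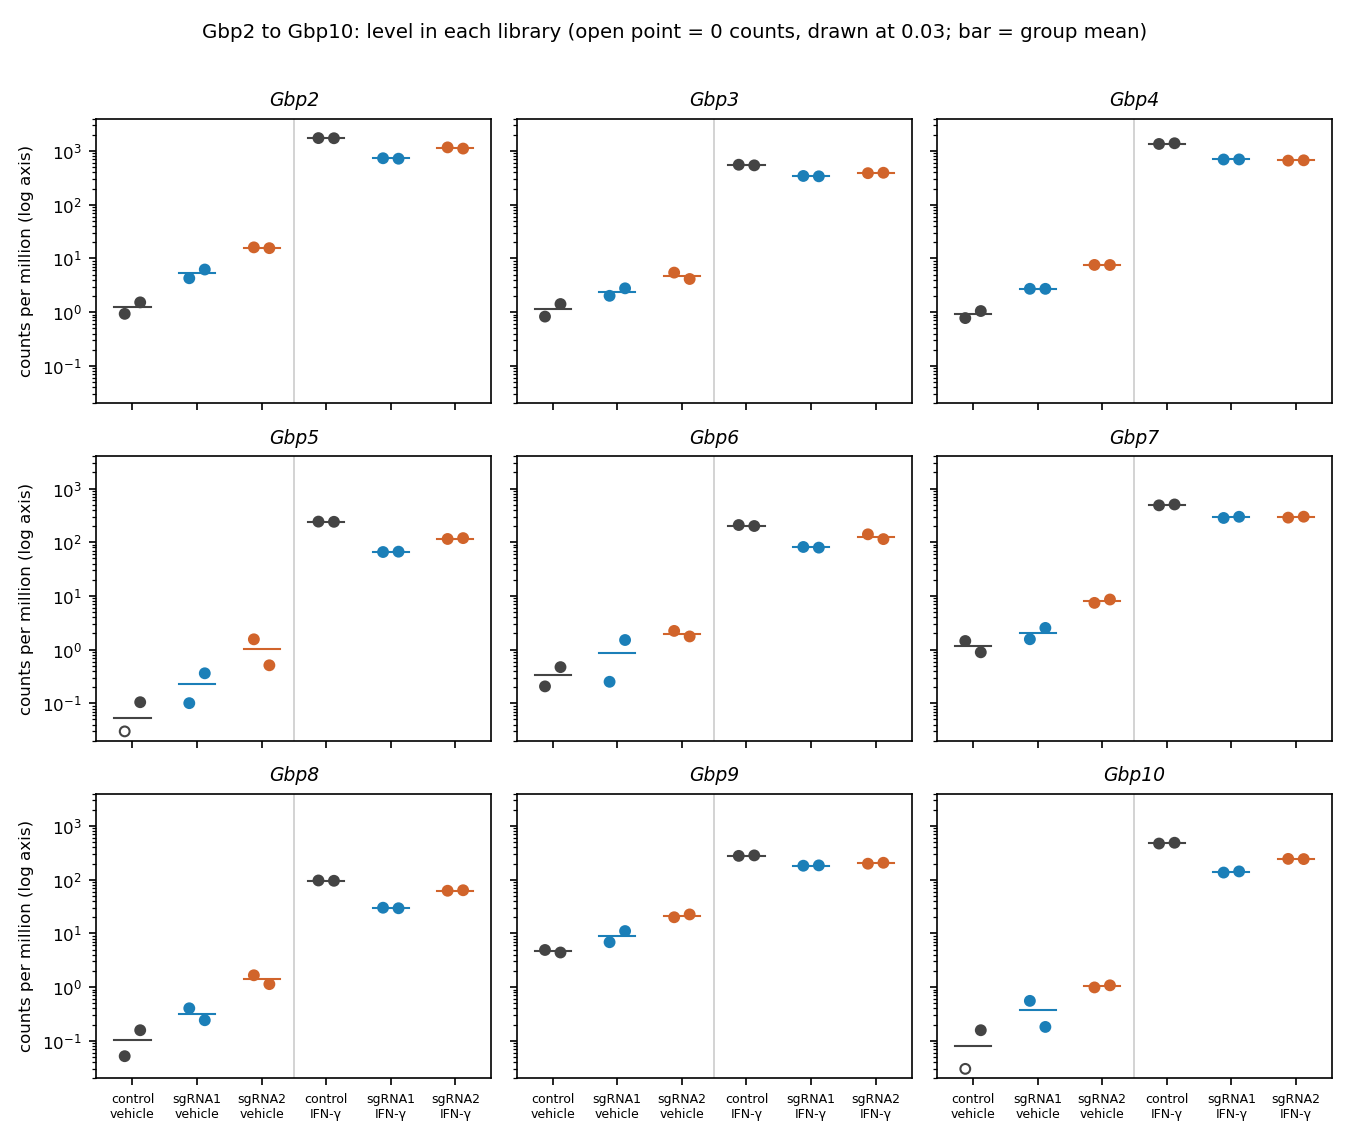
CPM (log axis) of each member in all 12 libraries, by line and treatment; points are libraries, bars are group means, and open points near the foot of the axis are libraries with 0 counts. IFN-gamma libraries lie above vehicle libraries of the same line in every panel, and vehicle levels step up from control to sgRNA2 while IFN-gamma levels are highest in the control line.

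In the lines with a Cebpd guide IFN-gamma also raised all 9 members. With sgRNA1, 9 of 9 were called higher (31.7% of all genes were) with a median log2 fold change of 7.17, from 4.38 in Gbp9 to 8.48 in Gbp10. With sgRNA2, 9 of 9 were called higher (30.5% of all genes) with a median of 6.17, from 3.25 in Gbp9 to 7.87 in Gbp10. The median over all genes was 0.00 and -0.02. Gbp9 was thus the least induced member and Gbp10 the most induced in each line by the fitted value. In the sgRNA2 line, calls over all genes were 51.1% higher and 38.1% higher under upper-quartile scaling, and all 9 members were called higher under both.

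**Figure D2:**
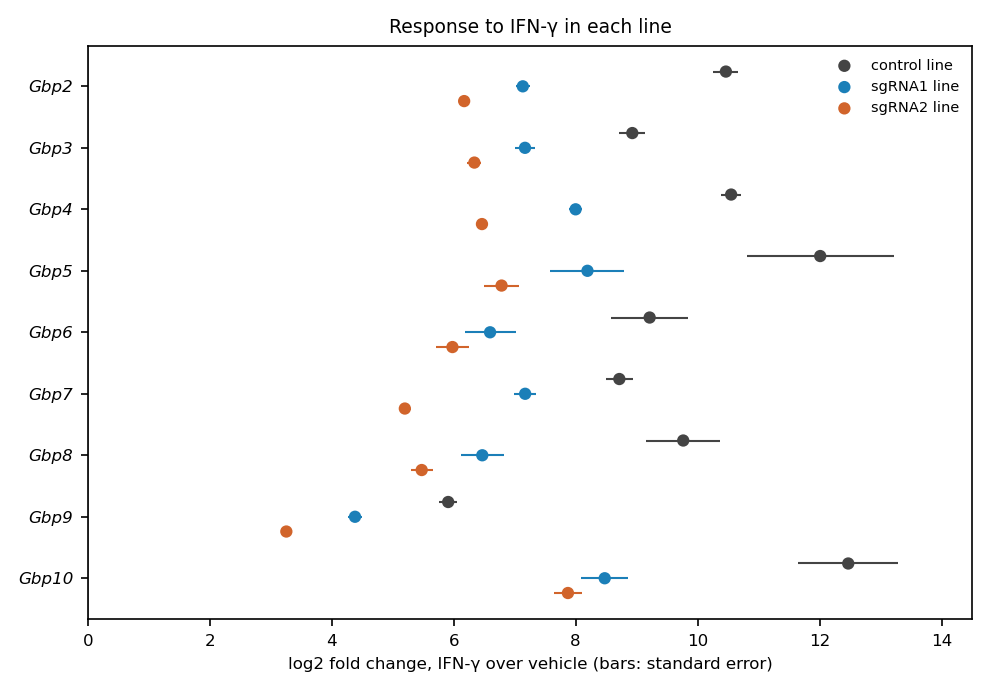
Log2 fold change of IFN-gamma over vehicle for each member in the control, sgRNA1 and sgRNA2 lines, with standard errors. Control values lie to the right of both guide lines for every member, and Gbp9 is lowest in each line.

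In vehicle, members were higher in the guide lines than in the control line. The set summed to 18.7 and 27.6 CPM with sgRNA1 and to 62.9 and 62.8 CPM with sgRNA2, against 9.14 and 10.2 CPM in control, and these ranges do not overlap. With sgRNA1, 6 of 9 members were called higher and 0 lower, where 25.6% of all genes were called higher. With sgRNA2, 9 of 9 were called higher, where 38.3% of all genes were. Gbp5 is counted there though it passed the filter on low counts only with the IFN-gamma libraries included. In a fit of the compared groups alone Gbp5 was not tested, and 8 members were called. The median log2 fold change of the members was 1.57 with sgRNA1 and 3.04 with sgRNA2, and over all genes it was 0.03 and 0.06. Under upper-quartile scaling 62.8% of all calls with sgRNA1 and 62.5% with sgRNA2 were higher, against 48.8% and 52.3% with TMM.

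Gbp2 had the clearest rise. It was at 4.28 and 6.22 CPM with sgRNA1 and at 16.1 and 15.5 CPM with sgRNA2, above the control libraries in every case. Its log2 fold change over control was 2.07 ± 0.23 (adjusted p = 1.77e-07) with sgRNA1 and 3.69 ± 0.21 (adjusted p = 6.35e-13) with sgRNA2. Gbp4 was at 2.72 and 2.72 CPM with sgRNA1 and 7.57 and 7.55 CPM with sgRNA2, and its log2 fold changes were 1.57 ± 0.19 and 3.04 ± 0.18. For both genes the 3 lines form separate steps.

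Gbp9 was at 6.85 and 11.04 CPM with sgRNA1 and 20.0 and 22.5 CPM with sgRNA2. Its rise over control was 0.92 ± 0.18 and 2.19 ± 0.16, among the smaller rises of the set. The sgRNA1 value was 0.55 without the second sgRNA1 vehicle library and was still called. Gbp3 rose by 1.07 ± 0.26 with sgRNA1 and 2.10 ± 0.24 with sgRNA2. Gbp7, linked to the NADPH oxidase in phagocytes, was at 1.56 and 2.54 CPM with sgRNA1 and 1.45 and 0.891 CPM in control, groups that come close to touching. Its rise of 0.77 ± 0.28 (adjusted p = 0.0234) lost the call without the second control vehicle library (0.47, adjusted p = 0.224) or the second sgRNA1 vehicle library (0.41, adjusted p = 0.335), and was 1.16 without the first control vehicle library. With sgRNA2 Gbp7 was at 7.41 and 8.57 CPM, clear of both other lines, a rise of 2.76 ± 0.24.

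The members with few vehicle counts were less certain with sgRNA1. Gbp5 had 2 and 6 counts with sgRNA1 (log2 fold change 1.95 ± 1.35, adjusted p = 0.159), and its range overlaps that of control. Gbp6 had 5 and 25 counts there against 4 and 9 in control (1.27 ± 0.75, adjusted p = 0.143), and these ranges overlap too. Without the second sgRNA1 vehicle library the Gbp6 value was -0.42 (adjusted p = 0.739). Gbp8 had 8 and 4 counts against 1 and 3 (1.60 ± 0.70, adjusted p = 0.0584). None of these 3 was called. Gbp10 was called with 11 and 3 counts against 0 and 3 (2.21 ± 0.90, adjusted p = 0.0198). That call was lost without the first control library (1.25, adjusted p = 0.211) or the first sgRNA1 vehicle library (1.15, adjusted p = 0.428).

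With sgRNA2 these genes had more reads. Gbp5 had 30 and 9 counts, Gbp6 had 43 and 31, Gbp8 had 32 and 20, and Gbp10 had 19 and 19. Each library exceeded every control vehicle library, and how many of all genes do so was not counted. As log2 fold changes, these rises ran from 2.54 ± 0.68 in Gbp6 to 4.19 ± 1.24 in Gbp5, and Gbp10 was at 3.62 ± 0.85. The second control vehicle library held all baseline counts of Gbp5 and Gbp10, and without it their fitted rises with sgRNA2, which then depend on the prior count and are no bound, were 7.39 and 7.36, and that of Gbp10 with sgRNA1 was 5.95.

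In vehicle, the sgRNA2 line was above the sgRNA1 line in 9 of 9 members (33.2% of all genes were called higher), by a median of 1.47 on the log2 scale. The 9 include Gbp5, which passed the filter on low counts only with the IFN-gamma libraries included. Gbp2 differed by 1.61 ± 0.13, Gbp7 by 1.99 ± 0.19 and Gbp3 by 1.03 ± 0.19. For Gbp5, Gbp6 and Gbp10 this call was lost when a single vehicle library was left out. Without the first sgRNA1 library, the difference was 1.52 (adjusted p = 0.0541) in Gbp5 and 0.40 (adjusted p = 0.414) in Gbp6, and in Gbp10 it was 2.46. Without the second sgRNA1 library, it was 0.88 (adjusted p = 0.0974) in Gbp10, and 2.96 in Gbp6. Without the first sgRNA2 library, it was 1.15 (adjusted p = 0.155) in Gbp5 and 1.05 (adjusted p = 0.131) in Gbp6.

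Some other values moved with these steps in vehicle. The 5 of 10 leukocyte markers that are in the table (Ptprc, Csf1r, Cd68, Itgam and Cd14) summed to 14.7 to 16.3 CPM in control libraries, 27.1 to 29.0 in the sgRNA1 line and 46.6 to 48.4 in the sgRNA2 line. Of the 5, Ptprc, which encodes CD45, had at most 10 counts and Itgam at most 3 in any library, and the other 3 carried the sum. Cd68 was at 3.77 to 5.09 CPM in control libraries, 4.63 to 4.89 CPM for sgRNA1 and 25.3 to 25.6 CPM for sgRNA2. Cd14 was at 9.81 to 10.1, 19.98 to 20.5 and 13.2 to 13.4 CPM and Csf1r at 0.734 to 0.775, 1.99 to 3.72 and 7.52 to 9.02 CPM in the same order, so that Csf1r alone of these 3 stepped up through the lines as the members did. Col1a1, the only fibroblast marker of 5 in the table, was at 0.103 to 0.262 CPM in control, 1.21 in both sgRNA1 libraries and 3.89 to 3.97 CPM with sgRNA2. Ribosomal protein mRNAs took 8.39% to 8.49%, 11.1% to 11.2% and 12.8% to 13.3% of counts, and mitochondrially encoded mRNAs 0.620% to 0.670%, 0.814% to 0.839% and 1.12% to 1.14%. Their part in the Gbp differences was not tested.

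After IFN-gamma the members were lower in both guide lines than in control, while the summed level with sgRNA2 stayed above that with sgRNA1. The set summed to 2550 and 2555 CPM with sgRNA1 and 3265 and 3220 CPM with sgRNA2, against 5431 and 5476 CPM in control. With sgRNA1, 9 of 9 members were called lower (33.3% of all genes were) with a median log2 fold change of -1.26. With sgRNA2, 9 of 9 were called lower (31.6% of all genes) with a median of -0.69. Over all genes the median was 0.00 and 0.03. Both comparisons share the control libraries. Beside them, the 6 epithelial markers summed to 3833 to 3881 CPM in control libraries, 2501 to 2509 in the sgRNA1 line and 2956 to 3173 in the sgRNA2 line, and mitochondrially encoded mRNAs took 1.02% to 1.18%, 0.540% to 0.544% and 0.533% to 0.628% of counts. Ribosomal protein mRNAs took 7.44% to 7.46%, 7.08% to 7.53% and 10.1% to 11.1% in the same order. Their part in the falls was not tested.

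The members fell by unequal amounts with sgRNA1. Gbp5 was at 65.6 and 66.6 CPM against 242 and 240 CPM in control, a log2 fold change of -1.86 ± 0.07 (adjusted p = 5.48e-13). Gbp10 was at 136 and 142 CPM against 471 and 487 CPM (-1.78 ± 0.06), and Gbp8 was at 30.0 and 29.4 CPM against 96.6 and 95.3 CPM (-1.69 ± 0.07). As ratios to the control level these 3 genes were at 0.275, 0.290 and 0.310. Gbp9 was at 182 and 185 CPM against 277 and 283 CPM, the smallest fall at -0.61 ± 0.07, and Gbp3 (-0.69 ± 0.05) and Gbp7 (-0.77 ± 0.06) were close to it. Gbp2, at 734 and 719 CPM, fell by 1.26 ± 0.06 on the log2 scale and Gbp4, at 695 and 698 CPM, by 0.98 ± 0.04. No member's libraries overlap between the lines, in a comparison where 33.3% of all genes were called lower and 31.6% higher. How many of all genes do not overlap was not counted.

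With sgRNA2 the spread among members was smaller. Gbp4 was at 663 and 672 CPM (-1.04 ± 0.04, adjusted p = 1.14e-12), Gbp5 at 115 and 119 CPM (-1.04 ± 0.07) and Gbp10 at 244 and 242 CPM (-0.98 ± 0.05). The other 6 members fell by 0.47 to 0.76. Gbp6, at 140 and 114 CPM against 209 and 200 CPM (-0.69 ± 0.09, adjusted p = 4.09e-06), was the least regular, and DESeq2 did not call it (-0.70, adjusted p = 0.295).

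Set against each other in IFN-gamma, the guide lines differed in 6 of 9 members, all higher with sgRNA2, where 23.4% of all genes were called higher. The differences were 1.08 ± 0.07 in Gbp8, 0.82 ± 0.08 in Gbp5, 0.80 ± 0.06 in Gbp10, 0.66 ± 0.10 in Gbp6, 0.65 ± 0.06 in Gbp2 and 0.20 ± 0.06 in Gbp3. Gbp6 was not called here by DESeq2 (adjusted p = 0.358), and Gbp3 was not called without the second sgRNA1 IFN-gamma library (0.19, adjusted p = 0.0542). The other 3 members did not pass the test. Gbp4 differed by -0.06 with a 95% interval of -0.15 to 0.02, and Gbp7 by 0.01 with an interval of -0.11 to 0.13, a value whose sign changed when single libraries were left out. Gbp9 differed by 0.14 (-0.003 to 0.29, adjusted p = 0.0991). Without the first or the second sgRNA1 vehicle library it was called, at a difference that was still 0.14. Those libraries are outside the compared groups, so the call changed while the difference did not.

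**Figure D3:**
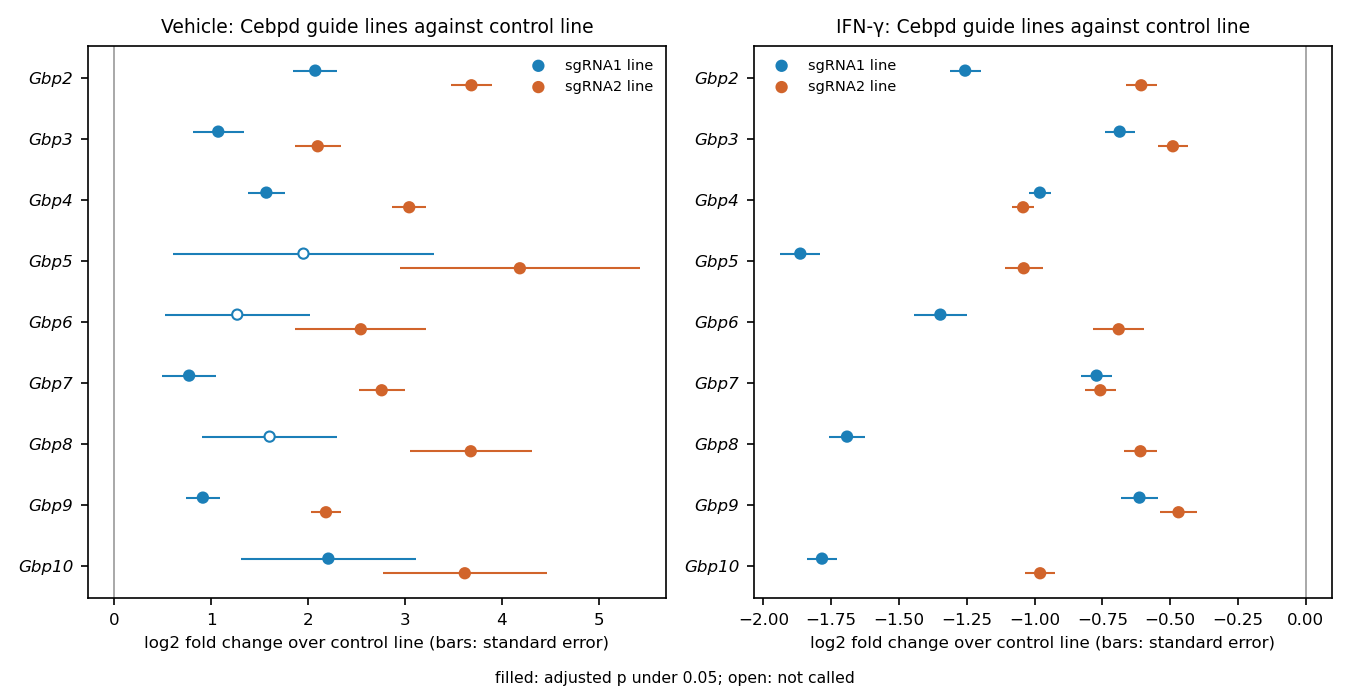
Log2 fold change of each guide line over the control line in vehicle (left) and in IFN-gamma (right), with standard errors; filled points passed an adjusted p of 0.05. In vehicle every point lies above 0, with Gbp5, Gbp6 and Gbp8 open for sgRNA1, and in IFN-gamma every point lies below 0.

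The size of the response was compared between lines as the interaction, the IFN-gamma response of a guide line minus that of the control line. It was below 0 and called in 9 of 9 members with sgRNA1 (28.2% of all genes were called lower) and in 9 of 9 with sgRNA2 (34.7% of all genes). By definition it equals the difference from control in IFN-gamma minus the difference from control in vehicle. Gbp2 responded less by 3.33 ± 0.24 with sgRNA1 and by 4.29 ± 0.22 with sgRNA2 on the log2 scale (adjusted p = 4.71e-10 and 3.45e-13). Its 2 parts were -1.26 in IFN-gamma and 2.07 in vehicle with sgRNA1, and -0.61 and 3.69 with sgRNA2. The larger part for Gbp2 was thus the higher vehicle level. The median interaction was -2.62 and -4.09, against -0.03 and -0.08 over all genes. The members' median difference from control was -1.26 and -0.69 in IFN-gamma and 1.57 and 3.04 in vehicle. With sgRNA1 the interaction of Gbp5 (-3.82 ± 1.35) and Gbp6 (-2.62 ± 0.75) rests on the second sgRNA1 vehicle library, without which they were -2.74 (adjusted p = 0.202) and -0.93 (adjusted p = 0.45). For Gbp5 and Gbp10 the sizes also rest on the second control vehicle library, without which the fitted values were -7.03 and -7.74 with sgRNA1 and -8.44 and -8.34 with sgRNA2.

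Levels of different members can be compared per length only, as CPM per kilobase of the main transcript. In control vehicle libraries Gbp9 led at 1.06 ± 0.081 (SD, n = 2), which was 41.0% of the set's summed level per length. It was followed by Gbp2 (0.487) and Gbp3 (0.418), whose ranges overlap, then Gbp7 (0.208), Gbp4 (0.201) and Gbp6 (0.130), each overlapping the next. Gbp8, Gbp10 and Gbp5 were lowest, at 0.0425, 0.0223 and 0.0172, and could not be ordered beyond their spread.

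After IFN-gamma in control, Gbp2 led at 690 ± 3.05 per kilobase, 41.0% of the set. Gbp4 (303), Gbp3 (204), Gbp10 (136) and Gbp7 (88.2) followed, each separate from the next. Gbp5 (78.8) and Gbp6 (78.5) overlapped, and Gbp9 (64.0), now the eighth with 3.80% of the set, and Gbp8 (39.0) came last. With the exon bases that no other annotated gene covers as the length, Gbp10 was at 230 and took the second place, and Gbp9 (54.8) took the sixth. That length counts the exons of all transcripts of a gene, so it also changed for members with little or no overlap. Gbp5, with 0 overlapping bases, went from 3055 to 6637 bases and from 78.8 to 36.3 per kilobase, and Gbp4 from 303 to 185. The new order is thus not a correction for shared exons alone.

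In the guide lines Gbp2 led both in vehicle and in IFN-gamma. In vehicle it was at 2.09 per kilobase with sgRNA1, overlapping Gbp9 (2.04), and at 6.28 with sgRNA2, separate from Gbp9 (4.85). In IFN-gamma Gbp2 was at 289 with sgRNA1 and 453 with sgRNA2, followed by Gbp4 (154 and 147) and Gbp3 (127 and 146), of which the last pair overlapped with sgRNA2. Gbp10 was the fourth with sgRNA2 (68.8) and the sixth with sgRNA1 (39.4), behind Gbp7 (51.7) and Gbp9 (41.8). Gbp8 was the lowest in both, at 12.1 and 25.6.

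**Figure D4:**
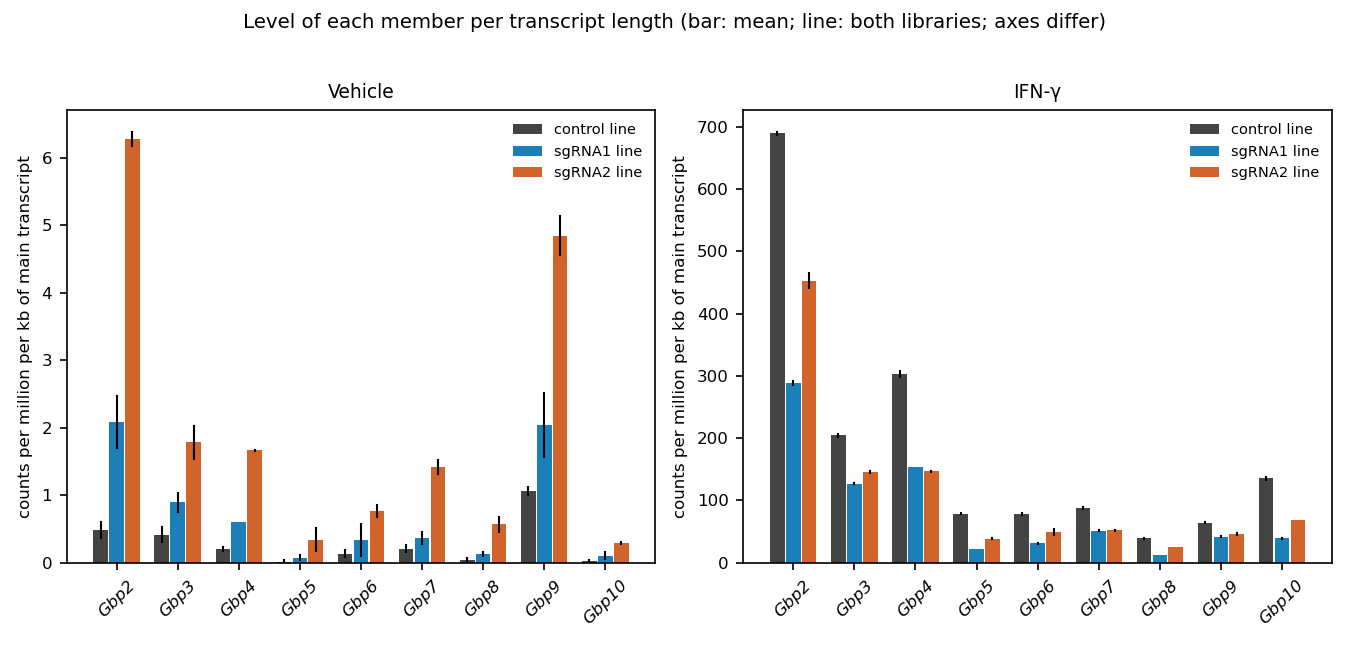
Level of each member as CPM per kilobase of its main transcript in vehicle (left) and IFN-gamma (right), on different linear axes; bars are means and lines span both libraries of a group. Gbp9 is the tallest control bar in vehicle and Gbp2 the tallest in IFN-gamma.

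In the sgRNA2 IFN-gamma group the paired libraries of Gbp6 differed more than those of the other 8 members, and the row that overlaps it differed the other way. With sgRNA1 in vehicle, Gbp6 had 5 and 25 counts while Gm43302 had 17 and 3, and their sum was 22 and 28. With sgRNA2 in IFN-gamma, Gbp6 was at 140 and 114 CPM while Gm43302 was at 242 and 285 CPM, and their sum was 383 and 400 CPM. The coefficient of variation in that group was 14.4% for Gbp6, 11.5% for Gm43302 and 3.09% for the sum. Whether the counting moved reads between these rows was not tested.

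Summing the rows changed what the data show for Gbp6. This alternative was chosen after the data were seen. The sgRNA1 rise in vehicle was then 1.07 ± 0.28 (adjusted p = 0.00443) and called. The sgRNA1 fall in IFN-gamma was -0.68 ± 0.05 in place of -1.35, since Gm43302 itself was at 259 and 257 CPM against 339 and 339 CPM in control. The difference between guide lines was 1.96 in vehicle and 0.21 in IFN-gamma, both called. With Gbp10 added to the sum, the rise with sgRNA1 in vehicle was 1.26, the fall in IFN-gamma -1.10 and the sgRNA1 interaction -2.36, against 2.21, -1.78 and -3.99 for Gbp10 alone. The guide lines then differed by 0.41 in IFN-gamma. Each of these summed values had the sign of the single row.

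**Figure D5:**
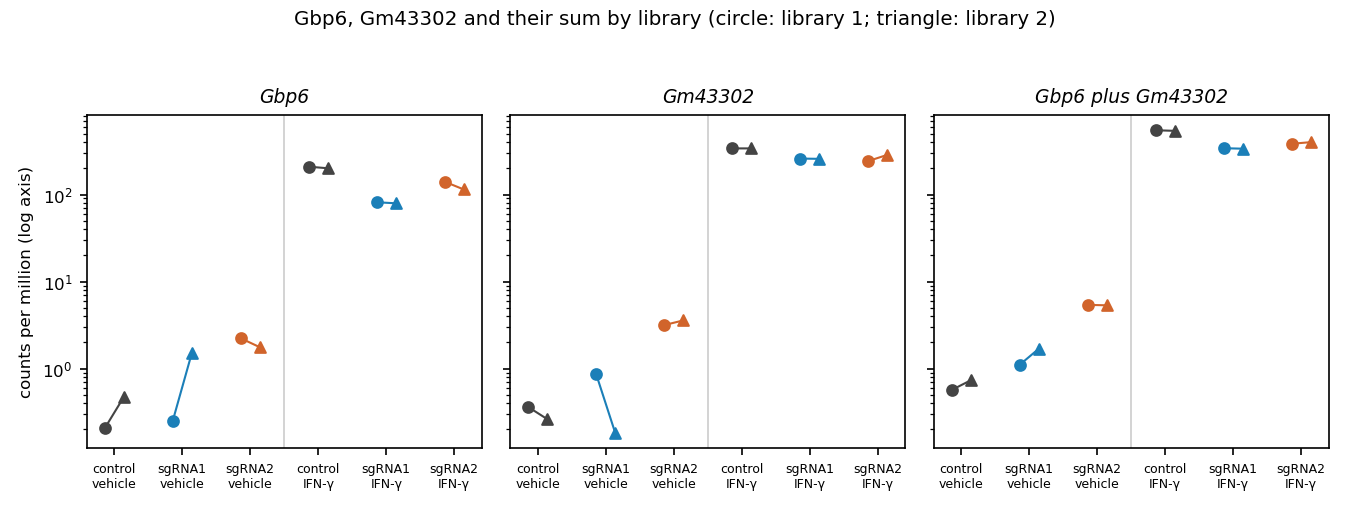
CPM (log axis) of Gbp6, of Gm43302 and of their sum in each library, by line and treatment; lines join the 2 libraries of a group, a circle for the first and a triangle for the second. In the sgRNA1 vehicle and sgRNA2 IFN-gamma groups Gbp6 and Gm43302 slope in opposite directions, and their sum is flatter.

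Gbp2b, the closest relative of Gbp2, and Gbp11, an annotated polymorphic pseudogene on chromosome 5, were not in the set. Gbp2b was at 1688 and 1720 CPM in control IFN-gamma libraries, 691 and 696 CPM with sgRNA1 and 992 and 987 CPM with sgRNA2. Gbp11 had 0 counts in all control and sgRNA1 vehicle libraries and 1 in each sgRNA2 vehicle library, and 100 and 114 counts in control after IFN-gamma, 42 and 38 for sgRNA1 and 79 and 67 for sgRNA2. In IFN-gamma both rows were thus highest in control and lowest with sgRNA1.

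Of 11936 genes that averaged 1 CPM or more, the 8 whose log2 CPM was most like the members' mean over 12 libraries were Ifi44, Gbp2b, Parp12, Bst2, Stat2, Ptpn13, Parp14 and Tap1. Pearson's r ran from 0.998 for Ifi44 to 0.995 for Tap1. These values are dominated by the step between vehicle and IFN-gamma. Within the 6 IFN-gamma libraries r was 1.00 for Gbp2b, 0.992 for Stat2 and 0.982 for Tap1, but 0.550 for Ptpn13 and 0.556 for Parp14. Tap1, which pumps peptides into the endoplasmic reticulum for antigen presentation, was at 3.54, 6.29 and 28.1 CPM in control, sgRNA1 and sgRNA2 vehicle and at 675, 424 and 472 CPM in IFN-gamma.

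Upstream of the Gbp promoters, the transcription factor gene Irf1 differed between the lines in vehicle. It was at 22.6 and 26.6 CPM in control libraries, 48.8 and 49.7 CPM for sgRNA1 and 126 and 127 CPM for sgRNA2, the same order of lines as the members. It rose by 1.00 ± 0.06 and 2.36 ± 0.06 over control.

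After IFN-gamma Irf1 was lower in the guide lines. It was at 777 and 779 CPM in control libraries, 508 and 506 CPM for sgRNA1 and 619 and 633 CPM for sgRNA2. The log2 fold change over control was -0.62 ± 0.05 with sgRNA1 and -0.31 ± 0.05 with sgRNA2. Between the guide lines in IFN-gamma, Irf1 was higher with sgRNA2 by 0.30 ± 0.05 (adjusted p = 3.49e-05).

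The counts of 6 related gene lists that follow can be read against all genes tested. With IFN-gamma in control 36.4% of all genes were called higher and 34.1% lower. In vehicle 25.6% were called higher and 26.9% lower with sgRNA1, while for sgRNA2 these shares were 38.3% and 35%. In IFN-gamma 31.6% were called higher and 33.3% lower with sgRNA1, while for sgRNA2 they were 30.2% and 31.6%. The median log2 fold change of all genes lay between 0.00 and 0.06 in these comparisons.

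In the list of 13 genes from receptor to promoter, 11 rose and 1 fell with IFN-gamma in control, among them Irf1 (4.98 ± 0.06), Irf8 (4.52 ± 0.06) and Stat2 (4.02 ± 0.08). In vehicle 7 rose and 3 fell with sgRNA1, and 9 rose and 3 fell with sgRNA2. The receptor chain Ifngr1 rose by 0.59 ± 0.06 and 1.07 ± 0.06, and the phosphatase gene Ptpn11 fell by 0.50 ± 0.05 and 1.13 ± 0.05. In IFN-gamma 10 of 13 fell and 1 rose with each guide, among them the kinase gene Jak2 (-1.04 ± 0.05 and -0.90 ± 0.05). The list's median was -0.50 with sgRNA1 and -0.34 with sgRNA2. The list holds both activators and inhibitors of the signalling, among the latter Socs1 and Socs3, so its counts do not describe activators alone.

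The immunity-related GTPases (IRG), a family of smaller IFN-gamma-induced GTPases that acts with the guanylate-binding proteins on vacuoles, had 12 of 15 listed genes in the table. With IFN-gamma in control 11 of 12 rose, among them Igtp (8.98 ± 0.17), Irgm2 (8.33 ± 0.17) and Irgm1 (5.73 ± 0.11). In vehicle 8 rose and 1 fell with each guide. With sgRNA1 the smallest adjusted p-values of the edgeR test were those of Ifi47 (6.03 ± 0.77, from a mean of 0.0775 CPM in control) and 9930111J21Rik2 (2.93 ± 0.32). Irgm1 rose by 0.99 ± 0.13 with sgRNA1 and Igtp by 2.02 ± 0.19 with sgRNA2. In IFN-gamma 6 fell and 3 rose for sgRNA1, and 8 fell and 1 rose for sgRNA2. Irgm1 fell by 0.74 ± 0.05 and 0.75 ± 0.05, Irgm2 by 0.52 ± 0.04 and 0.67 ± 0.04. Tgtp2 went the other way with sgRNA1, at a mean of 151 CPM against 110 CPM in control, and was at 86.5 CPM with sgRNA2. The list's median, -0.26 and -0.49, was thus nearer to 0 than the members' with either guide, a difference that was not tested.

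Of 12 listed genes of the non-canonical and AIM2 inflammasomes, 10 were tested. With IFN-gamma in control 8 rose, led by Casp4 (5.45 ± 0.25), the mouse caspase-11 gene, Casp1 (3.97 ± 0.20) and Gsdmd (2.24 ± 0.10), which encodes the pore-forming gasdermin D. In vehicle 4 rose and 1 fell with sgRNA1 and 6 rose with sgRNA2, and Casp4 rose by 2.18 ± 0.28 and 3.45 ± 0.26. In IFN-gamma 2 rose and 5 fell with sgRNA1, where Casp4 fell by 0.69 ± 0.10 (adjusted p = 1.2e-05). With sgRNA2, 4 rose and 2 fell. The 4 were Nlrp3, Ninj1, Casp1 and Casp4, and Casp4 rose by 0.31 ± 0.10 (adjusted p = 0.0107), the opposite sign to all 9 Gbp members in that comparison. Casp1 and Casp4 were named here after their values were seen.

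Partners of Gbp recruitment and anchoring moved in both directions. Of 16 genes of ATG8 conjugation and ubiquitin, which direct Gbp proteins to vacuoles, 10 rose and 3 fell with IFN-gamma in control, with a median of 0.39. In IFN-gamma 4 rose and 6 fell with sgRNA1 and 7 rose and 4 fell with sgRNA2, with medians of -0.08 and -0.01, and in vehicle 6 rose and 3 fell and 8 rose and 5 fell. Of 7 prenylation enzyme genes, which make the lipid anchor, 2 rose and 4 fell with IFN-gamma in control. Fnta, a farnesyltransferase subunit, fell by 1.27 ± 0.05 there and was higher with sgRNA1 (1.19 ± 0.05) and sgRNA2 (0.73 ± 0.05) than in control in IFN-gamma, where 3 rose and 3 fell with each guide. In vehicle 2 rose and 4 fell with sgRNA1 and 1 rose and 4 fell with sgRNA2.

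Among 13 of 15 listed dynamin-related GTPases that are in the table, 10 rose and 1 fell with IFN-gamma in control. Mx2, an antiviral member, rose by 6.66 ± 0.67 and Mx1 by 6.27 ± 0.97, while the list's median was 0.39. With sgRNA1 2 rose and 7 fell in vehicle and 2 rose and 6 fell in IFN-gamma, and with sgRNA2 5 rose and 7 fell in vehicle and 2 rose and 7 fell in IFN-gamma. The mitochondrial fusion gene Opa1 fell in all 4 of these comparisons, by 0.41 to 0.68.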

How the data were processed

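RNA of 12 libraries was made into libraries with the Illumina TruSeq RNA kit, which does not mark strand, per the labels' protocols. The authors deposited raw read counts per gene symbol, and STAR 2.4.0, HTSeq, DESeq2 1.10 and mm10 are named in the submitters' processing notes without their roles. The sources used here do not give the strand setting, the handling of reads that match several genes or the read length. The cells are of BALB/c origin, and the reference genome is of C57BL/6. Without strand, reads of genes that overlap on opposite strands cannot be told apart. Strand would not separate genes that overlap on the same strand, such as Gbp4, Gbp8 and Gbp9.

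The counts were fitted in edgeR 4.0.16 (R 4.3.3) with TMM scaling, filterByExpr (minimum count 10, minimum total 15; 13601 genes kept, with 99.965% of counts) and a quasi-likelihood model with 6 group means, so that all groups share the estimate of spread (6 residual degrees of freedom). P-values were adjusted by Benjamini-Hochberg over all genes tested and called under 0.05. Ratios carry exact conditional binomial intervals at 95%, which cover counting error only. The procedure was tested on simulated data. CPM are counts scaled to a common library total after TMM. Per-length values used GENCODE vM21 main transcripts. Coding sequences were aligned with Biopython 1.88.

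Members and lists were chosen with earlier results of these data known. From each list at most 4 genes per comparison were named, from among those with the smallest adjusted p. The 8 genes most like the set were those with the highest Pearson r. Irf1 and Cebpd by library, Gbp2b, Gbp11, Gm43302 and the levels of Tgtp2 lie outside this rule. An item that the rule would name is not reported here. Alternatives were DESeq2 1.42.0, RLE and upper-quartile scaling, no filter, only the compared groups, a replicate block and each library left out. Summing rows that overlap Gbp6 was added after the data were seen.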

Additional observations from a re-analysis of the deposited data

Results flagged for a closer look

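The response to IFN-gamma differed between each guide line and the control line in every member, by edgeR's quasi-likelihood test of the interaction with Benjamini-Hochberg adjustment. The values are the log2 response of the guide line minus that of the control line. They hold both the lower level in IFN-gamma and the higher level in vehicle of the guide lines. With sgRNA1 it was -3.33 in Gbp2, -1.76 in Gbp3, -2.55 in Gbp4, -3.82 in Gbp5, -2.62 in Gbp6, -1.54 in Gbp7, -3.30 in Gbp8, -1.53 in Gbp9 and -3.99 in Gbp10. With sgRNA2 it was -4.29 in Gbp2, -2.59 in Gbp3, -4.09 in Gbp4, -5.23 in Gbp5, -3.23 in Gbp6, -3.52 in Gbp7, -4.29 in Gbp8, -2.65 in Gbp9 and -4.60 in Gbp10. Adjusted p-values ran from 4.71e-10 to 0.00792 with sgRNA1 and from 6.91e-14 to 6.09e-05 with sgRNA2. Not all of these rest on every library. Without the second sgRNA1 vehicle library the sgRNA1 values of Gbp5 and Gbp6 were -2.74 and -0.93. Gbp5 and Gbp10 had 0 to 3 counts in control vehicle libraries, so the sizes of their values are uncertain.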

How the results depend on the processing

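Of the members' values under alternatives, 1776 kept their direction and their side of the threshold. Of these, 1166 came from leaving 1 library out. That library was mostly outside the compared groups, where the fold change could hardly move, so this count says little about robustness. Another 10 values gained the call, 18 lost it and 5 changed sign, none of the 5 called. Gbp6 with sgRNA1 against control in vehicle was -0.42 without the second sgRNA1 vehicle library. Gbp7 between guide lines in IFN-gamma was -0.0038 and -0.0034 without the first or the second sgRNA2 vehicle library, -0.024 without the first sgRNA1 IFN-gamma library and -0.017 without the second sgRNA2 IFN-gamma library, and at most 0.051 with any library left out. All 9 members stayed called for IFN-gamma in each of the 3 lines under every alternative run. Calls with sgRNA1 against control in vehicle ranged from 4 to 7. When only the compared groups were fitted, Gbp5, Gbp6, Gbp8 and Gbp10 were not tested there, and Gbp7 lost its call (0.79, adjusted p = 0.0947). Gbp8 gained it under upper-quartile scaling (1.70, adjusted p = 0.042), and without the second control vehicle library (2.53) or the second sgRNA1 vehicle library (1.89). Gbp6 gained it without the first sgRNA1 vehicle library (2.14). The sgRNA1 interaction had 7 to 9 calls when a library was left out, and sgRNA2 against sgRNA1 had 7 to 9 in vehicle and 5 to 7 in IFN-gamma. Fitting only the compared groups gave 6 calls between guide lines in vehicle, without Gbp6 (1.20, adjusted p = 0.0759) and Gbp10 (1.38, adjusted p = 0.0504), and with Gbp5 not tested. Gbp9 was called between guide lines in IFN-gamma in that fit (0.15, adjusted p = 0.0231) and under upper-quartile scaling (0.18, adjusted p = 0.0441). DESeq2 did not call Gbp6 between guide lines in vehicle (1.20, adjusted p = 0.0993). With upper-quartile scaling the all-gene median shifted by up to 0.17 (sgRNA2 against control in vehicle). Same-numbered libraries did not deviate together over all tested genes (correlations from -0.07 to 0.07 over 15 pairs), so no pairing by number was seen. Counting noise in low genes weighs on these correlations, so they cannot exclude a shared culture or batch. A replicate block left the counts of calls at 9 and, for sgRNA1 against control in vehicle and sgRNA2 against sgRNA1 in IFN-gamma, at 6. Why these values moved was not tested. Depth limits Gbp5, Gbp6, Gbp8 and Gbp10 in vehicle, where control libraries held 0 to 9 counts.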
